A study of Mus musculus with 10 samples.

Results

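Immune checkpoints and costimulators are surface proteins through which antigen-presenting cells and lymphocytes restrain or support each other. The 10 genes described here, Pdcd1, Cd274, Pdcd1lg2, Lag3, Havcr1, Btla, Icosl, Cd80, Cd86 and Cd83, were taken by name from the 46316 genes of the count table, and each was read in all 10 libraries. All 10 had enough counts to be tested.

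Poly(A) RNA was sequenced from reporter-positive B220+ B cells sorted from the spleens of C57BL/6 mice, 1 library per mouse. The pBIC10 group (n = 3, from 2 females and 1 male) held lymphoma cells of mice with p53F/F and Blimp1F/F, with IKK2castopF/stopF and Cg1Cre/+, and with IL-10F/F. The pBIC group (n = 3, all females) held lymphoma cells with the same alleles of p53, Blimp1, IKK2 and Cre but no IL-10F/F, and the labels class both lymphomas as ABC-DLBCL, the activated B cell-like form of diffuse large B cell lymphoma. The YC group (n = 4, from 3 females and 1 male) held normal B220+YFP+ germinal centre B cells of YFPstopF/+ Cg1Cre/+ mice, sorted 10 days after a second immunisation with sheep red blood cells that followed the first by 20 days. Cg1Cre, carried by every mouse, is active in germinal centre B cells, and the ages of the mice were not given. Some label fields of YC repeat the wording for lymphoma cells (GFP, moribund), and the series description was followed. IL-10F/F is a floxed allele, deleted where Cre is active, and pBIC10 is labelled IL-10-deficient. The comparisons ask how the lymphoma cells with and without this allele differ from each other, and how each differs from normal germinal centre cells.

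PD-1 is an inhibitory receptor of activated T cells, and its ligands PD-L1 and PD-L2 sit on antigen-presenting cells and on many tumours. B7-1 and B7-2, encoded by Cd80 and Cd86, bind the activating receptor CD28 and the inhibitory receptor CTLA-4, and ICOS ligand binds ICOS on helper T cells. In the germinal centre, B cells of the light zone carry CD83 and B7-2 and take help from T cells through such contacts. IKK2 is a kinase that activates NF-kB, a family of transcription factors with targets among these ligands.

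The windows upstream of 4 ligand genes are shown because Cd274 and Pdcd1lg2 are neighbours on chromosome 19, and because Icosl and Cd80 were the 2 genes of the 10 that were higher in pBIC10 than in pBIC. Each is the 250 bases before the gene's start, from RefSeq on GRCm38.p6, and the capitals mark matches to a form of the NF-kB (kappa B) motif, GGG followed after 5 bases of any kind by CC, on either strand.
Cd274, chr19:29367188-29367437, plus strand: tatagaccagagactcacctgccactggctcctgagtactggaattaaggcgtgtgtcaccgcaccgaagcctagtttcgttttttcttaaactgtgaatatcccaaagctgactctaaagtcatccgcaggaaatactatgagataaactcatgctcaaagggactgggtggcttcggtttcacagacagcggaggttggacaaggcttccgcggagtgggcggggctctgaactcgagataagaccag
Pdcd1lg2, chr19:29410669-29410918, plus strand: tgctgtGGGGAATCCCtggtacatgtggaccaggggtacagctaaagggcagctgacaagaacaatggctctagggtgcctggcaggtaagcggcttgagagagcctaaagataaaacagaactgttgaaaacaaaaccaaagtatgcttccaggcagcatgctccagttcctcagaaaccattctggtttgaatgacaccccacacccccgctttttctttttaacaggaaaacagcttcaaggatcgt
Icosl, chr10:78069118-78069367, plus strand: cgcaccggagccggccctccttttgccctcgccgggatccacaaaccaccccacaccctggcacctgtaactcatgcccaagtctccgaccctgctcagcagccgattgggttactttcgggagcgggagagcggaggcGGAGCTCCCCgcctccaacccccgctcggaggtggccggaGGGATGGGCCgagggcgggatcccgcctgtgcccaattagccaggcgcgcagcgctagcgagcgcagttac
Cd80, chr16:38458683-38458932, plus strand: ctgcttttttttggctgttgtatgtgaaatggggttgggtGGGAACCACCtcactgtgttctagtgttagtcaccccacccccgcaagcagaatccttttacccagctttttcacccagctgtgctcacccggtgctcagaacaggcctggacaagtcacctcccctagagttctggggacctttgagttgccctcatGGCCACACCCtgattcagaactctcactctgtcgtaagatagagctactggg

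The table of windows, each 300 bases long (250 before and 50 after the start), held 7 of the 10 genes. The kappa B form had 2 matches each in Pdcd1lg2, Icosl and Cd80, and the 2 in Pdcd1lg2 are the same place read on both strands. No match lay in the windows of Cd274, Pdcd1, Havcr1 or Btla. This short form is common, since 50.8% of 32851 windows held it. An interferon response form (GAAA and GAAA, 2 bases apart), held by 3.44% of windows, and TTCNNNGAA, a STAT form held by 8.3%, were in none of the windows of the 7 genes on either strand. These letters say nothing about binding in these cells.

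Libraries held 17100995 to 18578955 counts in pBIC10, 17797344 to 19134178 in pBIC and 12590117 to 14330172 in YC. Levels are in CPM, the count relative to the library total with TMM scaling, and 3 counts, the limit that a count of 0 allows, were worth 0.154 to 0.246 CPM in a library. Summed levels of 8 B cell markers were 2643 to 4591 CPM in pBIC10, 2065 to 3655 in pBIC and 8278 to 10489 in YC. Germinal centre markers (7 genes) summed to 38.2 to 57.3 CPM in pBIC10, 62.0 to 79.7 in pBIC and 625 to 1150 in YC. Of the counts on heavy chain V segments, 67.4 to 70.5% fell on Ighv7-3 in every pBIC10 library and 51.6 to 59.1% on Ighv8-11 in every pBIC library, so if each group is 1 clone, clone and genotype cannot be told apart. The libraries of a lymphoma group would then not be independent lymphomas, and SE and adjusted p would rest on spread within a clone. The pBIC10 libraries were made for this series and the others were re-analysed from an earlier one, so the origin of the libraries and the IL-10 allele cannot be told apart either. Trp53 averaged 44.6 ± 7.0 CPM in pBIC10, 31.6 ± 18.9 in pBIC and 191 ± 10 in YC, Prdm1 (Blimp1) 0.863 ± 0.646, 10.0 ± 5.6 and 28.7 ± 9.4, Ikbkb (IKK2) 390 ± 48, 285 ± 57 and 141 ± 18, and Il10 3.16 ± 1.44, 11.7 ± 6.8 and 7.20 ± 2.36, in the same order.

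Pdcd1, Lag3, Havcr1, Icosl and Cd86 had no overlap between any of the 3 groups, and the other 5 genes overlapped in at least 1 comparison. The share of all genes without overlap in all 3 comparisons was not counted, so this is a description only. In pBIC10 against pBIC, 8 were called at an adjusted p under 0.05, 2 higher (Icosl, Cd80) and 6 lower (Pdcd1, Cd274, Lag3, Havcr1, Cd86, Cd83), where 30.7% of the 17718 genes tested were called (15.6% higher, 15.1% lower). Libraries of the 2 groups did not overlap for 8 of the 10, against 41.8% of all genes. In pBIC10 against YC, 7 were called, 1 higher (Cd80; 24.8% of all genes were higher) and 6 lower (26.9% of all genes), against 51.7% in either direction, and 7 did not overlap, against 61.0%. In pBIC against YC, 9 were called, 5 higher (26.4% of all genes were higher) and 4 lower (27.7% of all genes), against 54.1% in either direction, and 5 did not overlap, against 54.2%. The median log2 fold change of the 10 was -1.72 in pBIC10 against pBIC (all genes -0.0071), -1.54 in pBIC10 against YC (all genes 0.0099) and 0.32 in pBIC against YC (all genes 0.020). The comparisons share groups, so their values are not independent of each other.

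**Figure D1:**
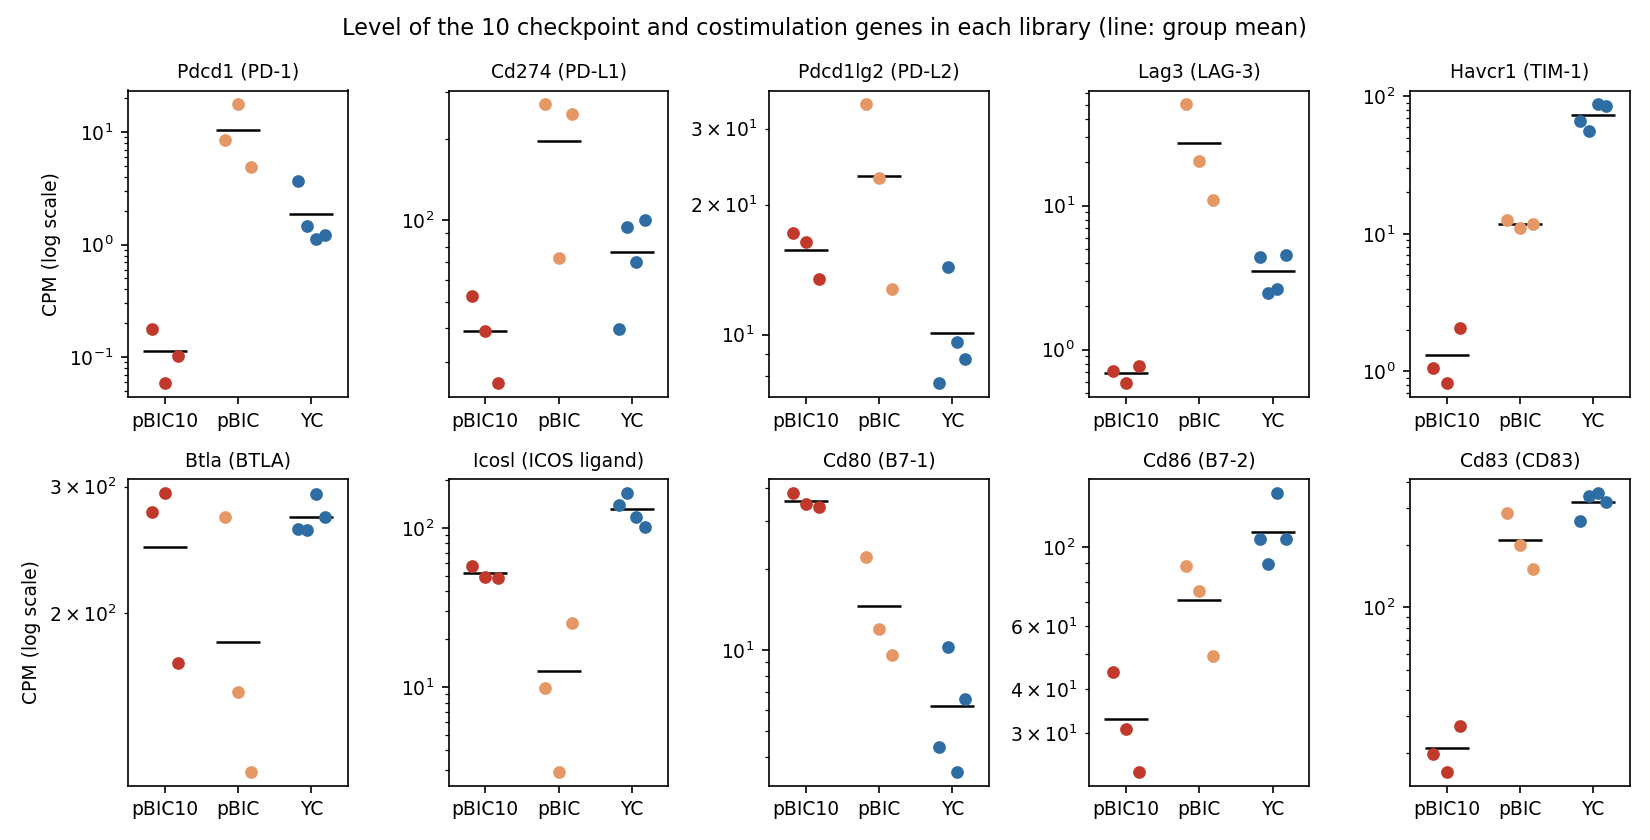
Each panel plots 1 gene, with the groups pBIC10, pBIC and YC from left to right and the level in CPM on a log axis; a point is a library and a line the group mean. Pdcd1, Lag3, Cd83 and Havcr1 lie lowest in all 3 pBIC10 libraries, Cd80 lies highest there, and Btla overlaps between the groups.

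**Figure D2:**
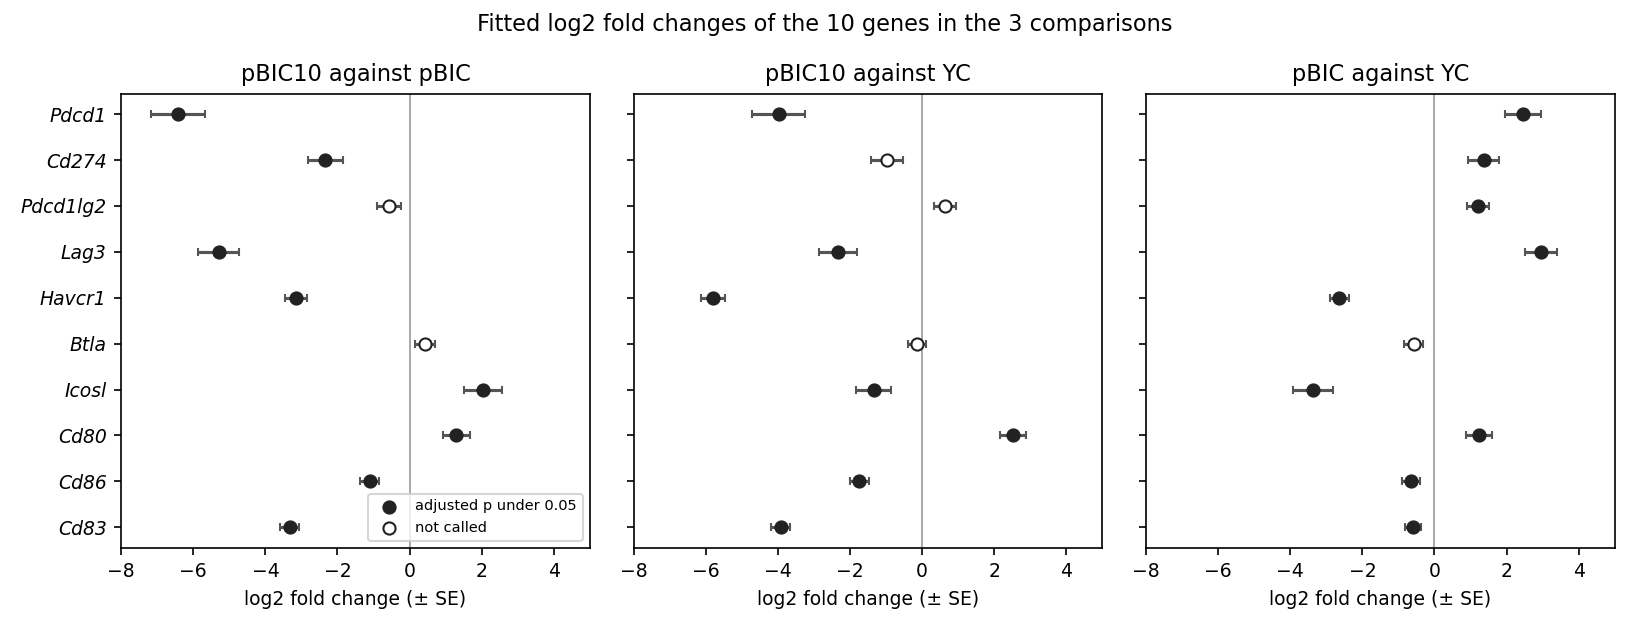
Points are fitted log2 fold changes and bars their SE, for the 3 comparisons; filled points passed an adjusted p of 0.05. Pdcd1 and Lag3 lie left of 0 in both pBIC10 panels and right of 0 in pBIC against YC, whereas Cd80 lies right of 0 in all 3.

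Within each group the order of the levels was read per kb of exon, since the genes differ in length. In pBIC10, Btla led with 72.7 ± 19.7 CPM per kb (SD, n = 3) and stood clear of all others. Behind it, Icosl, Cd274, Cd80, Cd86, Cd83 and Pdcd1lg2 lay between mean levels of 11.2 and 7.99 CPM per kb, and each overlapped the next in the order. Havcr1 (0.567), Lag3 (0.326) and Pdcd1 (0.0584 CPM per kb) were far lower. In pBIC the order was Cd83 (82.0 ± 25.6 CPM per kb), Cd274 (54.2 ± 29.8) and Btla (53.7 ± 23.4), which overlapped, then Cd86, Lag3, Pdcd1lg2, Pdcd1, Havcr1, Cd80 and Icosl, between 19.4 and 2.74 CPM per kb, each overlapping the next. In YC, Cd83 (124 ± 17 CPM per kb, n = 4) and Btla (80.0 ± 4.3) led without overlap. They were followed by Havcr1, Cd86, Icosl and Cd274, which overlapped between means of 31.9 and 21.1 CPM per kb, then Pdcd1lg2 at 5.15 and Cd80, Lag3 and Pdcd1 at 1.67, 1.66 and 0.975.

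Pdcd1 encodes PD-1, the receptor itself. It had 0.177, 0.0586 and 0.103 CPM in the pBIC10 libraries, which is 3, 1 and 2 counts. In pBIC it had 8.52, 17.6 and 4.87 CPM. The YC libraries had 3.71, 1.47, 1.13 and 1.21 CPM. No library of any group overlapped another group, with pBIC highest and pBIC10 near the limit of detection. The log2 fold change was -6.43 ± 0.75 (SE) in pBIC10 against pBIC (adjusted p = 4.32e-05) and -5.84 without pBIC replicate 2, and it rests on 6 counts in pBIC10. Against YC it was -3.98 ± 0.73 in pBIC10 (adjusted p = 5.61e-04) and 2.45 ± 0.51 in pBIC (adjusted p = 0.00136).

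Lag3 encodes LAG-3, an inhibitory receptor of activated T and NK cells that binds MHC class II. It stood at 0.708, 0.586 and 0.769 CPM in pBIC10. The pBIC libraries had 50.3, 20.4 and 10.9 CPM. In YC it stood at 4.37, 2.46, 2.62 and 4.56 CPM. As for Pdcd1, the groups did not overlap, pBIC was highest and pBIC10 lowest. Against pBIC, the log2 fold change in pBIC10 was -5.29 ± 0.57 (adjusted p = 2.76e-05), and -4.48 without pBIC replicate 1, the highest library. It was -2.33 ± 0.52 in pBIC10 against YC (adjusted p = 0.00237, and 0.0510 with limma-voom). Set against YC, pBIC gave 2.95 ± 0.44 (adjusted p = 1.49e-04) and 2.15 without pBIC replicate 1.

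Both receptors are best known from T cells, so T cell markers were read in the same libraries. In bulk RNA, fewer cells of a type and less RNA per cell cannot be told apart. Cd3e, a subunit of the T cell receptor complex, had 0.708, 0.176 and 0.205 CPM in pBIC10, 1.501, 1.92 and 1.18 in pBIC and 27.6, 12.3, 7.92 and 16.9 in YC. Cd3e was thus highest in YC, while Pdcd1 and Lag3 were highest in pBIC. Like them, Cd3e was lower in pBIC10 than in pBIC (log2 fold change -2.07 ± 0.59, adjusted p = 0.0176). Another marker on the list, Cd8b1, a chain of the CD8 coreceptor, had 1.003, 0.7029 and 3.64 CPM in pBIC10, 20.32, 15.32 and 44.88 in pBIC and 39.22, 20.06, 10.33 and 22.46 in YC. It was lower in pBIC10 than in pBIC, as Pdcd1 and Lag3 were (log2 fold change -3.89 ± 0.68, adjusted p = 0.00133), and pBIC overlapped YC. The ratio of Pdcd1 to Cd3e counts was 0.250, 0.333 and 0.500 in pBIC10, 5.68, 9.18 and 4.14 in pBIC and 0.0717 to 0.143 in YC. In pBIC10 these ratios rest on 6 counts of Pdcd1 and 19 of Cd3e in all. Lag3 stood at 1.0 to 3.75 times Cd3e in pBIC10, 9.23 to 33.5 times in pBIC and 0.159 to 0.330 times in YC. These ratios depend on the marker taken. Set against Cd8b1 instead, Pdcd1 and Lag3 in pBIC replicate 3 lay inside the range of YC. The 16 T cell markers summed to 70.0 to 71.4 CPM in pBIC10, 62.2 to 99.3 in pBIC and 403 to 746 in YC. In pBIC10 this sum was mostly Lck and Zap70, which averaged 43.9 and 14.1 CPM there and 14.4 and 1.93 CPM in pBIC. Between pBIC10 and pBIC 11 of them were lower (15.1% of all genes were) and 3 higher (Lck, Zap70 and Cd247; 15.6% of all genes). Against YC, 15 of the 16 were lower in pBIC10, all but Zap70 (26.9% of all genes), and 15 in pBIC, all but Cd8b1 (27.7% of all genes). The 8 NK cell markers summed to 1.49 to 4.31 CPM in pBIC10, 9.53 to 33.2 in pBIC and 35.6 to 84.2 in YC. Gzmb, a protease of cytotoxic cells, stood at 0.944, 0.0586 and 0.205 CPM in pBIC10, 6.81, 15.1 and 3.37 in pBIC and 3.44 to 5.04 in YC. Between pBIC10 and pBIC 4 of the 8 NK cell markers were lower, Gzmb among them (15.1% of all genes were), and 0 higher. Against YC, all 8 were lower in pBIC10 (26.9% of all genes). In pBIC 6 were lower than in YC, all but Gzmb and Prf1 (27.7% of all genes). For pBIC10 against pBIC, the part of these cells in the difference was not tested.

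**Figure D3:**
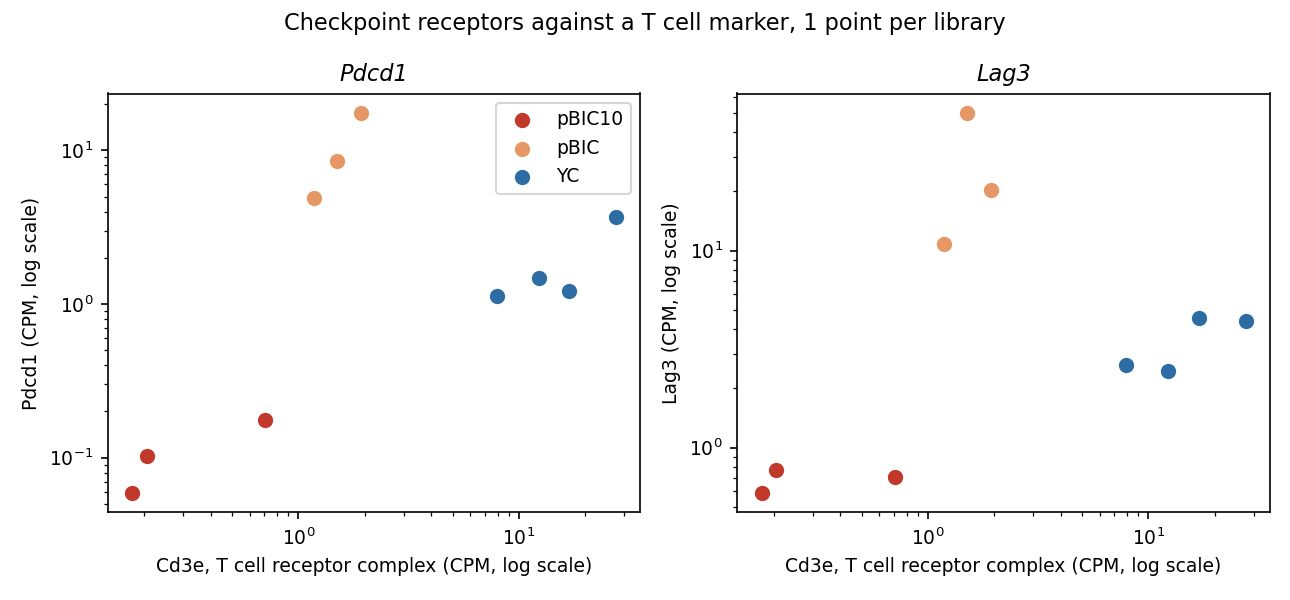
Each point is a library, with Cd3e on the x axis and Pdcd1 (left) or Lag3 (right) on the y axis, both in CPM on log axes. The pBIC points lie above the YC points while their Cd3e is between 1.18 and 1.92 CPM, and the pBIC10 points lie low on both axes.

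Cd274 encodes PD-L1. It had 52.6, 39.0 and 25.0 CPM in pBIC10. In pBIC it had 269, 72.3 and 247 CPM. The YC libraries had 39.7, 94.7, 70.5 and 101 CPM. Every pBIC10 library lay below every pBIC library, while pBIC replicate 2 lay inside the range of YC and pBIC10 overlapped YC. The log2 fold change in pBIC10 against pBIC was -2.34 ± 0.49 (adjusted p = 0.00381). In pBIC10 against YC it was -0.98 ± 0.45 and was not called (adjusted p = 0.0868). DESeq2 (adjusted p = 0.0346) and the fits of these 2 groups alone (0.0429), without pBIC replicate 2 (0.0313) or without YC replicate 1 (0.0347) did call it. Between pBIC and YC it was 1.36 ± 0.43 (adjusted p = 0.0192), a call lost without pBIC replicate 1 (0.0956), pBIC replicate 3 (0.0940) or YC replicate 3 (0.0573) and without the filter on low counts (0.0822). Of the Cd274 exons, 511 bases overlap an antisense transcript in the annotation, and the strand setting of the counting was not given.

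Pdcd1lg2 encodes PD-L2, the other ligand of PD-1. Its levels were 17.2, 16.4 and 13.4 CPM in pBIC10, 34.1, 23.1 and 12.7 in pBIC and 7.71, 14.3, 9.62 and 8.77 in YC. The groups overlapped in each comparison. It was called in pBIC against YC (log2 fold change 1.21 ± 0.31, adjusted p = 0.00537). In pBIC10 it was -0.57 ± 0.33 against pBIC (adjusted p = 0.211) and 0.63 ± 0.31 against YC (adjusted p = 0.105). Without pBIC replicate 3, both passed (adjusted p = 0.0387 and 0.0427), as did the second in a fit of those 2 groups alone (0.0397). The ratio of Cd274 to Pdcd1lg2 per kb was 1.66, 1.29 and 1.01 in pBIC10, 4.26, 1.70 and 10.5 in pBIC and 2.79, 3.58, 3.97 and 6.21 in YC. It was lower in pBIC10 than in every library of the other groups, 0.304-fold of pBIC (exact two-sided permutation p = 0.10, the smallest that 3 against 3 allow) and 0.326-fold of YC (p = 0.0286, the smallest that 3 against 4 allow). Over the 6 tests of ratios the adjusted values were 0.12 and 0.0857, and the ratio in pBIC against YC was 1.07-fold (exact p = 0.8286).

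Havcr1 encodes TIM-1, a receptor that marks regulatory B cells able to make IL-10 in mice. It stood at 1.06, 0.820 and 2.05 CPM in pBIC10, at 12.6, 10.97 and 11.9 in pBIC and at 66.1, 55.9, 87.4 and 85.7 in YC. The 3 groups formed separate steps with no overlap. The log2 fold changes were -3.15 ± 0.31 in pBIC10 against pBIC (adjusted p = 1.21e-05), -5.79 ± 0.33 in pBIC10 against YC (adjusted p = 1.38e-07) and -2.64 ± 0.27 in pBIC against YC (adjusted p = 8.17e-06). Of 2306 stretches of 50 bases in its transcripts, 106 also occur in other genes, 77 of them in Timd2, so its counts are uncertain where the counting splits such reads. Timd2, its paralog, which encodes TIM-2, had another pattern, with 0.413, 0.410 and 1.74 CPM in pBIC10, 76.7, 139 and 133 in pBIC and 18.4, 27.4, 40.7 and 34.7 in YC. Its log2 fold change was -7.04 ± 0.55 in pBIC10 against pBIC (adjusted p = 5.90e-06; -8.10 without pBIC10 replicate 3), -5.10 ± 0.51 in pBIC10 against YC (adjusted p = 1.40e-05; -6.17 without pBIC10 replicate 3) and 1.94 ± 0.38 in pBIC against YC (adjusted p = 0.00123). TIM-1 and TIM-2 transcripts thus both stood lowest in pBIC10, while against YC pBIC was lower for Havcr1 and higher for Timd2.

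Btla encodes BTLA, an inhibitory receptor of B and T cells that binds HVEM. Its levels were 276, 294 and 170 CPM in pBIC10, 272, 155 and 120 in pBIC and 262, 261, 293 and 272 in YC. All groups overlapped and no comparison was called. The log2 fold change was 0.44 ± 0.27 in pBIC10 against pBIC (adjusted p = 0.248), -0.14 ± 0.26 in pBIC10 against YC (adjusted p = 0.675) and -0.58 ± 0.26 in pBIC against YC (adjusted p = 0.0754). Without pBIC replicate 1 the first became 0.86 (adjusted p = 0.0136) and the last -0.99 (adjusted p = 0.00303), and limma-voom also called the last (0.0432).

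Icosl encodes ICOS ligand. It had 57.9, 49.0 and 48.3 CPM in pBIC10. In pBIC it had 9.81, 2.94 and 25.2 CPM, a wide spread. In YC it had 140, 166, 117 and 101 CPM. The groups did not overlap, with YC highest and pBIC lowest. The log2 fold change in pBIC10 against pBIC was 2.03 ± 0.53 (adjusted p = 0.0135). It was 3.02 without pBIC replicate 3, and the call was lost without pBIC10 replicate 1 (0.0623), pBIC10 replicate 2 (0.0536) or pBIC replicate 1 (0.0520) and without the filter on low counts (0.0907). In pBIC10 against YC it was -1.34 ± 0.49 (adjusted p = 0.0382), which was lost without any of the 3 pBIC10 libraries, pBIC replicate 1 or YC replicates 1, 2 or 3 (adjusted p 0.0540 to 0.142), in females alone (0.120) and without the filter (0.169). Between pBIC and YC it was -3.37 ± 0.54 (adjusted p = 3.56e-04), and -4.35 without pBIC replicate 3.

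Cd80 and Cd86 moved apart. Cd80, which encodes B7-1, had 38.2, 34.9 and 33.99 CPM in pBIC10, 22.0, 11.98 and 9.59 in pBIC and 4.37, 10.2, 3.54 and 6.56 in YC. Cd86, which encodes B7-2, had 44.7, 30.9 and 23.4 CPM in pBIC10, 88.4, 75.3 and 49.4 in pBIC and 105, 89.8, 142 and 105 in YC. For Cd80 every pBIC10 library was above every other library, and for Cd86 every pBIC10 library was below every other library. Cd80 was higher in pBIC10 than in pBIC (log2 fold change 1.30 ± 0.38, adjusted p = 0.0194) and than in YC (2.53 ± 0.36, adjusted p = 9.00e-05), and higher in pBIC than in YC (1.24 ± 0.35, adjusted p = 0.0101). The first call was lost without pBIC10 replicate 1 (0.0561), pBIC replicate 2 (0.0813) or pBIC replicate 3 (0.0619), and the last without pBIC replicate 1 (0.0708). Cd86 was lower in pBIC10 than in pBIC (-1.11 ± 0.27, adjusted p = 0.00748) and than in YC (-1.75 ± 0.26, adjusted p = 1.35e-04). Its call in pBIC against YC (-0.64 ± 0.25, adjusted p = 0.0458) was lost under 8 of 21 alternatives, among them without pBIC10 replicate 2, pBIC replicates 2 or 3 or YC replicates 1, 3 or 4 (adjusted p up to 0.172).

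The ratio of Cd80 to Cd86 per kb was 0.846, 1.12 and 1.43 in pBIC10. In pBIC it was 0.246, 0.157 and 0.192, and in YC it was 0.0410, 0.113, 0.0246 and 0.0616. The 3 groups were in separate steps, so that B7-1 and B7-2 transcripts stood about level in pBIC10 and B7-2 led in the other groups. The ratio was 5.67-fold higher in pBIC10 than in pBIC (exact two-sided permutation p = 0.10, the smallest possible), 21.5-fold higher than in YC (p = 0.0286, the smallest possible) and 3.79-fold higher in pBIC than in YC (p = 0.0571). Adjusted over the 6 tests of ratios these were 0.12, 0.0857 and 0.114.

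**Figure D4:**
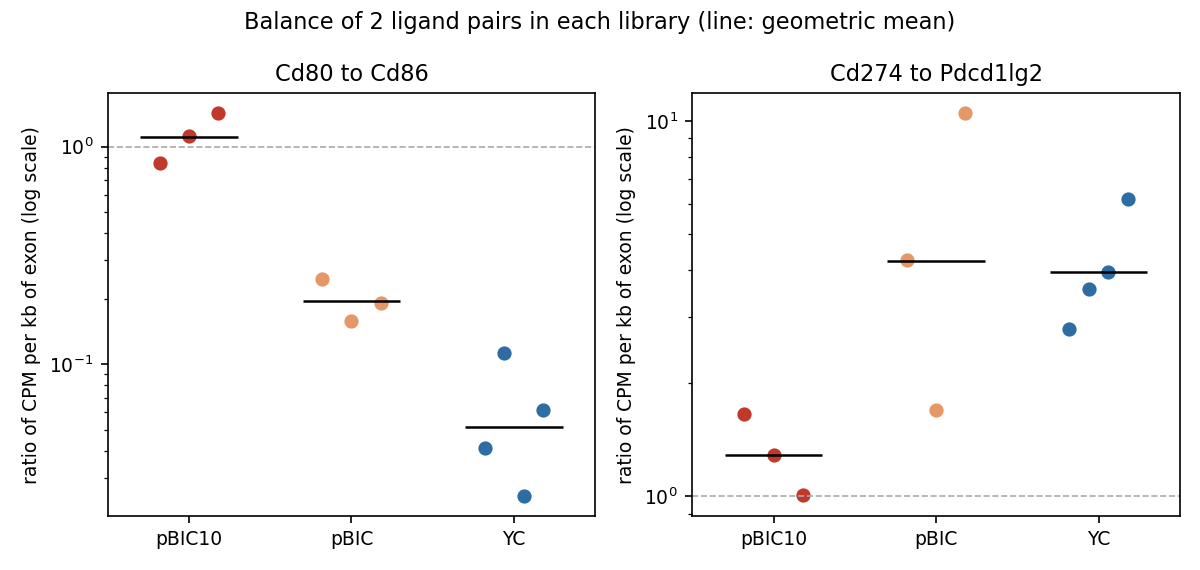
Ratios of 2 ligand pairs per kb of exon are plotted on log axes for each library, by group, with lines at the geometric means and a dashed line at 1. Cd80 to Cd86 (left) lies between 0.846 and 1.43 in pBIC10 and below 0.25 elsewhere; Cd274 to Pdcd1lg2 (right) is lowest in the 3 pBIC10 libraries.

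Cd83 encodes CD83, a surface protein that keeps MHC class II and B7-2 on the cell by opposing the ubiquitin ligase MARCH1. It stood at 19.9, 16.3 and 27.0 CPM in pBIC10. In pBIC it stood at 282, 199 and 152 CPM, and in YC at 259, 343, 354 and 320 CPM. Every pBIC10 library was far below the others, and pBIC replicate 1 lay inside the range of YC. The log2 fold change was -3.32 ± 0.26 in pBIC10 against pBIC (adjusted p = 2.66e-06) and -3.92 ± 0.26 in pBIC10 against YC (adjusted p = 4.40e-07). For pBIC against YC it was -0.60 ± 0.23 (adjusted p = 0.0397), a call lost under 10 of 21 alternatives, among them without pBIC10 replicate 1, pBIC replicates 2 or 3 or YC replicates 2, 3 or 4 (adjusted p up to 0.159). Marchf1, the gene of MARCH1, had 112, 107 and 63.8 CPM in pBIC10, 12.4, 3.22 and 2.09 in pBIC and 146, 120, 85.1 and 72.9 in YC. It was higher in pBIC10 than in pBIC (log2 fold change 3.99 ± 0.58, adjusted p = 3.81e-04; 5.16 without pBIC replicate 1), and lower in pBIC than in YC (-4.16 ± 0.57, adjusted p = 1.17e-04; -5.32 without pBIC replicate 1). Its difference in pBIC10 against YC was not called. In pBIC10 against pBIC, Cd83 and Cd86 were lower and Marchf1 higher. In pBIC10 against YC, Cd83 and Cd86 were lower without a call of Marchf1. In pBIC against YC, Cd83, Cd86 and Marchf1 were all lower. These are transcript levels, and a link between Marchf1 and the surface proteins was not tested.

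Binding partners of the 10, with the MARCH1 gene described above, made a list of 10 genes, of which 9 were tested. Between pBIC10 and pBIC 2 were higher (Lgals3 and Marchf1) and 3 lower (30.7% of all genes were called). Against YC, 1 was higher and 6 lower in pBIC10 (51.7% of all genes were called), and 1 was higher and 6 lower in pBIC (54.1% of all genes). Ctla4, the inhibitory receptor for B7-1 and B7-2, had 3.01, 2.99 and 5.54 CPM in pBIC10, 9.38, 11.6 and 12.3 in pBIC and 21.8 to 62.6 in YC. It was lower in pBIC10 than in pBIC (log2 fold change -1.52 ± 0.38, adjusted p = 0.00854) and lower than YC in both lymphoma groups. Cd28, the activating receptor, had 0.117 to 0.826 CPM in pBIC10, 0.429 to 1.87 in pBIC and 17.9 to 63.6 in YC. Icos had 0.354, 0.117 and 0.0513 CPM in pBIC10, 3.22, 0.735 and 0.964 in pBIC and 4.18 to 15.2 in YC, with a log2 fold change in pBIC10 against pBIC of -3.21 ± 0.83 (adjusted p = 0.0106), -4.19 without pBIC10 replicate 1 and -2.26 without pBIC replicate 1. Cd28 and Icos are also on the T cell marker list. They are themselves among the 15 of its 16 genes that were lower than YC in each lymphoma group. Of all genes, 26.9% were lower in pBIC10 and 27.7% in pBIC. The part of T cells in the levels of Cd28 and Icos was not tested. Rgmb, which binds PD-L2, had 2.71, 2.11 and 1.999 CPM in pBIC10, 7.02, 9.55 and 6.21 in pBIC and 3.61 to 5.34 in YC, and was lower in pBIC10 than in pBIC (-1.74 ± 0.32, adjusted p = 0.00136) and than in YC (-1.04 ± 0.31, adjusted p = 0.0118). Lgals3, the gene of galectin-3, which binds LAG-3, had 62.8, 56.3 and 13.8 CPM in pBIC10, 2.89, 6.61 and 8.94 in pBIC and 7.50 to 12.1 in YC. It was higher in pBIC10 than in pBIC (2.85 ± 0.54, adjusted p = 0.00208) and than in YC (2.07 ± 0.47, adjusted p = 0.00329).

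Tnfrsf14, the gene of HVEM, had 30.7 to 35.8 CPM in pBIC10, 30.6 to 57.8 in pBIC and 24.7 to 30.6 in YC. Its call in pBIC against YC (log2 fold change 0.58 ± 0.21, adjusted p = 0.0329) was lost under 9 of 21 alternatives, among them without pBIC replicate 1 (0.218) or YC replicates 1, 2 or 4. Cd160, another receptor for HVEM, had at most 1.0 CPM in pBIC10, 1.47 in pBIC and 3.78 in YC. It was lower in pBIC10 than in YC (-1.54 ± 0.47, adjusted p = 0.0149), which was lost without pBIC10 replicate 3 (0.0568), and its call in pBIC against YC was lost without any of 9 libraries. Timd4, a ligand of TIM-1, had 3 counts in all pBIC10 libraries, 1 in all pBIC libraries and 68 in all YC libraries. The ratio to YC was 0.0444 in pBIC10 (95% counting interval 0.00893 to 0.135) and 0.0144 in pBIC (3.59e-04 to 0.0830). Fgl1, a ligand of LAG-3, had 1 count in pBIC10, 0 in pBIC and 4 in YC and was not tested.

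A list of 47 other checkpoint and costimulation genes, 43 of them tested and 9 shared with the partners, set the 10 in their family. Between pBIC10 and pBIC 3 were higher and 15 lower (30.7% of all genes were called), with a median log2 fold change of -0.82. In pBIC10 against YC 5 were higher and 31 lower (51.7% of all genes), with a median of -1.84. In pBIC against YC 7 were higher and 18 lower (54.1% of all genes), with a median of -0.93. Among those lower in pBIC10 than in pBIC, Tnfsf9, the gene of 4-1BB ligand, averaged 1.56 ± 0.52 CPM in pBIC10, 12.5 ± 2.2 in pBIC and 12.8 ± 2.0 in YC (log2 fold change -3.001 ± 0.31, adjusted p = 1.94e-05). Ido1, which encodes a tryptophan-degrading enzyme that restrains T cells, averaged 0.183 ± 0.070, 3.83 ± 2.56 and 7.30 ± 2.92 CPM in the same order (-4.31 ± 0.62, adjusted p = 2.27e-04; -3.68 without pBIC replicate 2). Cd200r1, an inhibitory receptor, was also lower (-3.67 ± 0.66, adjusted p = 0.00112; -2.88 without pBIC replicate 1). Higher in pBIC10 was Cd244a, the gene of the CD48 receptor 2B4, at 5.96, 10.8 and 20.0 CPM in pBIC10, 1.55, 0.509 and 0.214 in pBIC and 1.06 to 3.93 in YC (4.001 ± 0.70, adjusted p = 0.00106; 5.08 without pBIC replicate 1). Ceacam1, an adhesion receptor, averaged 63.1 ± 30.8 CPM in pBIC10, 11.7 ± 8.9 in pBIC and 27.4 ± 6.6 in YC (2.43 ± 0.52, adjusted p = 0.00459; 3.26 without pBIC replicate 1).

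Against YC, both lymphoma groups had more Pvr, which encodes CD155, the ligand of TIGIT, CD226 and CD96. It had 14.8, 18.3 and 17.6 CPM in pBIC10, 18.8, 15.9 and 21.7 in pBIC and 6.01 to 8.93 in YC, with log2 fold changes of 1.06 ± 0.22 (adjusted p = 0.00136) and 1.21 ± 0.22 (adjusted p = 5.22e-04). Cd47, the "do not eat me" signal to macrophages, averaged 135 ± 7.5 CPM in pBIC10, 140 ± 3.7 in pBIC and 88.8 ± 8.4 in YC (0.60 ± 0.14, adjusted p = 0.00249, and 0.65 ± 0.14, adjusted p = 0.00141). Cd72, a B cell inhibitory receptor, averaged 70.0 ± 24.5 CPM in pBIC10, 44.9 ± 21.3 in pBIC and 314 ± 30 in YC. Among the listed genes lower in pBIC than in YC it had the smallest adjusted p (-2.81 ± 0.34, adjusted p = 3.68e-05), with Cd28, Cd226, Cd40lg and Cd96, which are known from T cells, next by that measure and further from 0 in fold change. Cd40lg had 3 counts in all pBIC libraries against 192 in YC, a ratio of 0.0153 (95% counting interval 0.00313 to 0.0454). Cd5, a receptor of T cells and some B cells, had the smallest adjusted p among those lower in pBIC10 than in YC (-5.66 ± 0.55, adjusted p = 4.91e-06). Most T cell markers were lower in both lymphoma groups than in YC, as counted above, and their part in these differences was not tested. Tnfsf14, the gene of the HVEM ligand LIGHT, had 0 counts in pBIC10 and was at least 24.3-fold lower than in pBIC and at least 37.1-fold lower than in YC, with 3 counts over the group as the bound. Tnfsf4, the gene of OX40 ligand, was not tested, with 3 counts in all pBIC10 libraries, and stood at 3.65, 16.4 and 0.268 CPM in pBIC and at most 0.428 CPM in YC.

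Genes beside Cd274 moved with it in part. In map order the tested genes are Ak3, Rcl1, Jak2, Insl6, Plgrkt, Cd274, Pdcd1lg2, Ric1, Ermp1 and Uhrf2, 10 of a list of 13. The list counts Cd274 and Pdcd1lg2 themselves. It leaves out some genes of the stretch, among them Ranbp6 and Il33 between Ermp1 and Uhrf2. In pBIC10 against pBIC 5 of the 10 were called, each of them lower (30.7% of all genes were called in either direction). They were Cd274, its neighbours Insl6 (log2 fold change -2.80 ± 0.28, adjusted p = 1.44e-05) and Plgrkt (-1.54 ± 0.24, adjusted p = 4.60e-04), Ermp1 (-0.84 ± 0.17, adjusted p = 0.00263) and Ric1 (-0.61 ± 0.21, adjusted p = 0.0384). The call of Ric1 was lost under 12 of 21 alternatives, among them without any pBIC10 library, pBIC replicates 1 or 3 or YC replicates 1, 2 or 4. Insl6, which encodes an insulin-like peptide, averaged 2.21 ± 0.05 CPM in pBIC10, 15.4 ± 1.8 in pBIC and 2.72 ± 0.38 in YC. Against YC, 8 of the 10 were higher in pBIC (26.4% of all genes were), and Jak2 and Uhrf2 were lower (27.7% of all genes). Jak2, the kinase of the interferon gamma receptor, averaged 42.5 ± 19.5 CPM in pBIC10, 37.5 ± 7.9 in pBIC and 98.7 ± 18.8 in YC. In pBIC10 against YC Ak3, Rcl1 and Ric1 were higher (24.8% of all genes were) and Jak2, Plgrkt and Uhrf2 lower (26.9% of all genes). Against YC, the calls of Uhrf2 in both groups and of Ric1 in pBIC10 were each lost under at least 7 of 21 alternatives, and that of Plgrkt in pBIC without pBIC replicate 1 (0.0970) or YC replicate 1 (0.0571).

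**Figure D5:**
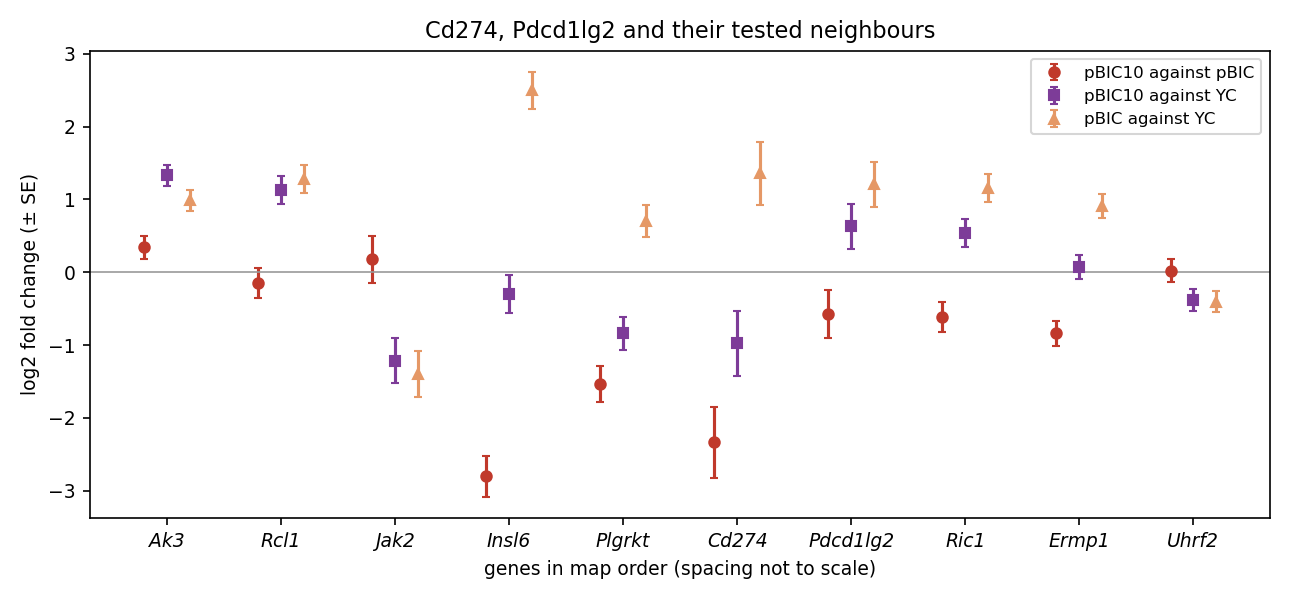
Points are log2 fold changes with SE of the 10 tested genes of the list, in map order, for the 3 comparisons. In pBIC against YC 8 of the 10 are above 0, and in pBIC10 against pBIC the lowest values are those of Insl6, Cd274 and Plgrkt.

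PD-L1 is induced by interferon gamma through JAK kinases and the transcription factor IRF1, and CMTM6 and CMTM4 keep the protein on the surface. Of 16 genes that control PD-L1, 1 was higher and 5 lower in pBIC10 against pBIC, 2 higher and 11 lower in pBIC10 against YC, and 4 higher and 7 lower in pBIC against YC. The shares of all genes called in these comparisons were 30.7%, 51.7% and 54.1%, in the same order. Irf1 averaged 81.6 ± 5.5 CPM in pBIC10, 252 ± 25 in pBIC and 120 ± 13 in YC, and it was lower in pBIC10 than in pBIC (log2 fold change -1.63 ± 0.16, adjusted p = 1.33e-05) and than in YC (-0.56 ± 0.15, adjusted p = 0.00722) and higher in pBIC than in YC (1.07 ± 0.15, adjusted p = 6.88e-05). By group mean, Irf1 and Cd274 were both highest in pBIC and lowest in pBIC10, though Cd274 in pBIC10 overlapped YC and was not called. The part of Irf1 in the level of Cd274 was not tested. Stat3 (-1.26 ± 0.19, adjusted p = 3.44e-04), Stat2 (-0.88 ± 0.22, adjusted p = 0.00950) and Ifngr2, a chain of the interferon gamma receptor (-0.87 ± 0.17, adjusted p = 0.00226), were also lower in pBIC10 than in pBIC. The other chain, Ifngr1, was higher (0.58 ± 0.17, adjusted p = 0.0200), a call lost without pBIC10 replicate 3 or pBIC replicate 3 and in 4 other alternatives. In pBIC10 against YC the lower genes included Ifngr1, Ifngr2, Jak1, Jak2, Stat2, Stat3, Irf1, Irf9, Rela and Rel, and Irf2 and Cmtm4 were higher. In pBIC against YC Ifngr1, Jak1, Jak2, Stat2, Irf9, Rela and Rel were lower, and the higher genes included Ifngr2, Irf1 and Cmtm4. The calls against YC of Ifngr2 in both groups and of Irf2 in pBIC10 were each lost under at least 6 of 21 alternatives, including without YC replicate 4.

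Of 11 genes that control the costimulators, 3 of them shared with the PD-L1 list, 2 were higher and 3 lower in pBIC10 against pBIC, 2 higher and 5 lower in pBIC10 against YC, and 4 were called in pBIC against YC, each of them lower. Of all genes, 30.7%, 51.7% and 54.1% were called in these comparisons, in the same order. Beside Marchf1, Traf3, an inhibitor of the noncanonical NF-kB pathway, was higher in pBIC10, at 285 ± 15 CPM, against 98.1 ± 36.3 in pBIC and 91.9 ± 3.3 in YC (log2 fold change against pBIC 1.54 ± 0.23, adjusted p = 3.42e-04). Nfkb2, a subunit of that pathway, averaged 84.8 ± 2.0 CPM in pBIC10, 140 ± 8 in pBIC and 269 ± 46 in YC (-0.73 ± 0.16, adjusted p = 0.00495). Adam17, a protease that sheds surface proteins, was also lower in pBIC10 than in pBIC (-1.18 ± 0.20, adjusted p = 6.61e-04). Relb was called lower (-0.62 ± 0.20, adjusted p = 0.0287), which was lost without any pBIC10 library or pBIC replicate 3 and in 3 other alternatives.

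Other cell types that carry these ligands were read as well. Myeloid markers (8 genes) summed to 66.2 to 70.6 CPM in pBIC10, 412 to 489 in pBIC and 180 to 279 in YC. In pBIC the sum was mostly Cd68, at 115, 100 and 117 CPM, and Mpeg1, at 336, 302 and 287 CPM, while Adgre1 stood at 0.509 to 2.73 CPM. The same 2 genes stood at 13.2 to 23.7 and 30.7 to 40.2 CPM in pBIC10 and averaged 30.5 and 66.0 CPM in YC. Against YC, these 2 were higher in pBIC (26.4% of all genes were). Another 4 of the 8, Csf1r, Adgre1, S100a8 and S100a9, were lower in pBIC than in YC (27.7% of all genes). In pBIC10 all 8 were lower than in YC (26.9% of all genes). Lyz2, Cd68 and Mpeg1 were lower in pBIC10 than in pBIC (15.1% of all genes were). Cd274, Cd86 and Cd83 were likewise lower in pBIC10 than in pBIC, and the part of myeloid cells in this was not tested. Dendritic cell markers (7 genes) summed to 11.7 to 31.3 CPM in pBIC10, 11.8 to 18.2 in pBIC and 63.2 to 86.1 in YC. Clec9a and Cd209a, which define subsets of dendritic cells, were at 0 or up to 0.118 CPM in both lymphoma groups. Flt3 averaged 14.4 CPM in pBIC10, 6.28 in pBIC and 49.6 in YC. In the same order, Zbtb46 averaged 2.54, 4.11 and 2.40 CPM and Xcr1 0.555, 1.48 and 1.52. Itgax averaged 1.06, 2.23 and 15.3 CPM and Siglech 0.247, 0.757 and 3.12. Of the 6 tested, 0 were called in pBIC10 against pBIC (30.7% of all genes were). Against YC, 4 were lower in pBIC10 (26.9% of all genes) and 3 in pBIC (27.7% of all genes). Erythroid markers (4 genes) summed to 317 to 842 CPM in pBIC10, 15.1 to 335 in pBIC and 90.1 to 271 in YC.

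The genes whose levels over the 10 libraries were most like those of a member were sought among 10691 genes, by the Pearson correlation of log2 CPM. The libraries fall into 3 groups, so these values mostly compare group levels, and they are a description. Nearest to Pdcd1 was Hif1a (r = 0.987), to Lag3 Bbx (0.982), to Havcr1 Cdr2 (0.993) and to Cd83 Il21r (0.991), the gene of the interleukin-21 receptor. Icosl was nearest to Klhl26 (0.986), Cd86 to Plek (0.980), Cd80 to Dgkh (0.973), Btla to Kif9 (0.952), Pdcd1lg2 to Tmem175 (0.951) and Cd274 to Itm2c (0.929).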

How the data were processed

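Single-end 50 nt reads of poly(A) RNA were made, per the labels' protocols. The authors deposited raw counts per gene, from featureCounts after FastQC, on GRCm39, per the submitters' processing notes. The aligner, annotation, strand setting and versions are not given there.

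The edgeR 4.0.16 filter filterByExpr (R 4.3.3) retained 17718 of 46316 genes. All 10 libraries (pBIC10 n = 3, pBIC n = 3, YC n = 4) entered 1 robust quasi-likelihood fit with TMM scaling and a coefficient per group. A call is a two-sided Benjamini-Hochberg adjusted p, over all genes tested, below 0.05. An SE is the log2 fold change over the square root of F, an approximation. Titles give 1 library per mouse, and replicate pairs differed beyond sampling noise (chi-square per degree of freedom 17.1 to 77.3). Replicate numbers follow accession order and pair nothing.

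The members, gene lists, tests and alternatives were chosen with earlier results of these data known. Named are the members, their partners, genes among the 5 smallest adjusted p per direction and comparison on the list of other genes, called neighbours of Cd274 and called genes of the control lists. Tnfsf14 and Tnfsf4 were named after their values were seen. Some genes of these lists are counted but not reported here by name. Ratios were tested by exact permutation of libraries. Exon lengths and shared 50-base stretches came from the annotation in hand and upstream windows from RefSeq, both of an earlier build than the counts. A group at 0 counts got a bound of 3 counts over the group, and one at 1 to 3 a ratio with an exact 95% interval. Both cover counting error only. The fit was tested on simulated data. Alternatives were other scalings, filters and tests (DESeq2 1.42.0, limma-voom from limma 3.58.1), fitting only the groups compared, adding sex, using females only, dropping antigen receptor genes, and leaving out each library.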

Additional observations from a re-analysis of the deposited data

Results flagged for a closer look

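Pdcd1 in YC was at 3.71 CPM in replicate 1, against 1.13 to 1.47 CPM in the other 3 libraries, so that most of the group's range lay between it and the next. The same library had the highest Cd3e of YC, at 27.6 CPM, against 7.92 to 16.9 CPM in the others. Chance flags about 1 in 20 groups.

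Pdcd1 and Lag3 moved in opposite directions against YC in the 2 lymphoma groups. The difference itself is the comparison of pBIC10 with pBIC, which was a log2 fold change of -6.43 for Pdcd1 (adjusted p = 4.32e-05, lower in 3 of 3 pBIC10 libraries) and -5.29 for Lag3 (adjusted p = 2.76e-05, lower in 3 of 3).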

How the results depend on the processing

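Over 21 alternatives, 578 of the 630 values of the 10 genes kept their direction and their side of the threshold, 40 lost a call, 10 gained one and 2 reversed. The reversals were both of Btla in pBIC10 against YC, which was not called in any of them: 0.12 in females alone (adjusted p = 0.759) and 0.081 without pBIC10 replicate 3 (adjusted p = 0.820). With each library left out in turn, Btla in pBIC10 against YC ranged from -0.27 to 0.081. Leaving out 1 library gave 6 to 8 members called in pBIC10 against pBIC, 6 to 8 in pBIC10 against YC and 6 to 9 in pBIC against YC. The list of other genes gave 16 to 21, 31 to 37 and 21 to 25 calls, and all genes 3884 to 6052, 7969 to 10128 and 8331 to 9949, in the same order. No count moved by more than 1.5 times under any alternative run. Of 2832 values of called genes outside the 10, 214 lost the call and 0 reversed. No paired analysis was possible because the labels carry no replicate numbers that the groups share. Depth limits Pdcd1 in pBIC10 (6 counts), Timd4, Fgl1, Cd40lg and Tnfsf14.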
